A study of Mus musculus with 3 samples.

Results

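The mRNA of the transferrin receptor gene Tfrc was examined together with 6 other mRNAs of iron uptake, storage, export and iron-responsive control, in 3 libraries of RNA recovered by RIA-seq. The genes were chosen by name: Tfrc, Slc11a2, Fth1, Ftl1, Slc40a1, Aco1 and Ireb2. All 7 were found among the 26887 genes listed. RIA-seq hybridizes antisense oligonucleotides to one RNA in a lysate of fixed cells, collects that RNA and what is held with it on beads, and sequences it. Every library came from E14, a mouse embryonic stem cell (ES cell) line of strain 129/Ola, kept undifferentiated with LIF and without feeder cells. All cells were fixed with 1% glutaraldehyde for 10 min and hybridized overnight at 37 °C. By their labels the libraries differ in the oligonucleotides, which were against Actb (β-actin mRNA, the control of the study), Malat1 (a nuclear long noncoding RNA) or Tfrc, and they are called the Actb, Malat1 and Tfrc library here. The control is itself a pull-down, and an input library was not analysed here. Among other pairs, the study asked whether oligonucleotides against Malat1 recover Tfrc mRNA beyond the control, and whether those against Tfrc recover Malat1. Each condition had 1 library, so no spread between replicates exists. Intervals are at the 95% level and cover counting error only, and a test of counts says how 2 libraries differ, which is not a test of the conditions.

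Cells take up iron mainly by binding transferrin to the transferrin receptor and carrying both into endosomes. Slc11a2 (DMT1) then moves the iron into the cytosol. Ferritin, a shell of heavy (Fth1) and light (Ftl1) chains, stores the iron, and ferroportin (Slc40a1) exports it. The iron regulatory proteins IRP1 (Aco1, which is a cytosolic aconitase when it holds an Fe-S cluster) and IRP2 (Ireb2) bind a short hairpin, the iron-responsive element, when iron is scarce. Binding in a 5′ UTR blocks translation, as for ferritin and ferroportin, and binding in the 3′ UTR of Tfrc protects the mRNA from decay.

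The hairpins are shown first because they set the 7 mRNAs into classes. The pattern searched was a C, then 5 bases, the loop CAGTGN, and 5 bases that pair with the first 5 (G with T allowed), on the sense strand of all coding transcripts of the GENCODE annotation of NCBIM37. It was found in 279 of 22611 genes (1.23%), with no condition on the lower stem. Tfrc held it 4 times, all in the 3′ UTR, and Fth1, Ftl1 and Slc40a1 held it once, in the 5′ UTR. Aco1, Ireb2 and Slc11a2 did not match. A second pattern with 1 unpaired base on the 3′ side of the stem, added after the first search and held by 2.97% of genes, was found once in the 3′ UTR of a Slc11a2 transcript of 4415 nt, and not in Aco1 or Ireb2. Sequences are written 5′ to 3′ on the strand of the mRNA, with the loop in capitals, and each lies in 1 exon.
Tfrc element 1, chr16:32631305-32631333, plus strand: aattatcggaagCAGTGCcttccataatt
Tfrc element 2, chr16:32631684-32631712, plus strand: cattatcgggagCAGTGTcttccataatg
Tfrc element 3, chr16:32631749-32631777, plus strand: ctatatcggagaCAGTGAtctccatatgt
Tfrc element 4, chr16:32631796-32631824, plus strand: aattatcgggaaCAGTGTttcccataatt
Fth1, chr19:10057222-10057250, plus strand: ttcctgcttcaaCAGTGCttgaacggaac
Ftl1, chr7:52715149-52715177, minus strand: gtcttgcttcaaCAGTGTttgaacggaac
Slc40a1, chr1:45982310-45982338, minus strand: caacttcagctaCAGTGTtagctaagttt
Slc11a2, chr15:100225583-100225612, minus strand: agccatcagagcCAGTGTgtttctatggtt

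The elements of the 2 ferritin chains were alike at 26 of 29 bases. Those of Tfrc shared 18 to 25 of 29 bases with each other and 9 to 13 with either ferritin element. In elements 1, 2 and 4 of Tfrc all 6 bases on each side of the lower stem could pair, and in element 3 these were 5 of 6. A match describes letters and is not evidence of binding, which was not measured.

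**Figure D1:**
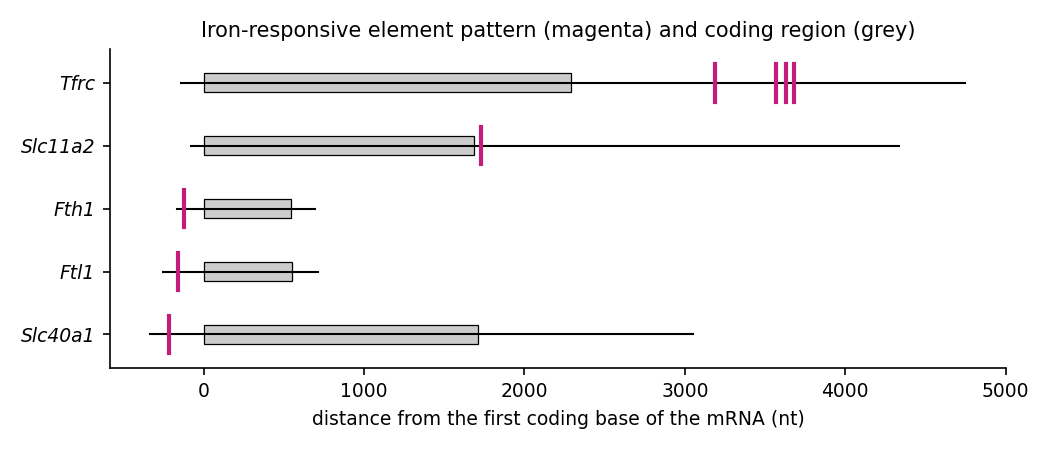
Map of the mRNAs that held the element pattern, which for Slc11a2 is the second one, with 1 unpaired base. The x axis gives the distance from the first coding base in nt. Grey boxes are coding regions, lines are UTRs and magenta bars mark the pattern, which lies 3′ of the coding region in Tfrc (4 bars) and Slc11a2 (1 bar) and 5′ of it in Fth1, Ftl1 and Slc40a1.

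Library totals were 10405209 (Actb), 10078439 (Malat1) and 14553941 (Tfrc) counts. Reads were listed for a gene under its Ensembl identifier (Ensembl-ID counts), under the reference name Genome (Genome counts), or both. Both kinds were kept apart, then summed, and expressed as CPM (counts per 1000000 counts of the library). Actb alone took 7.30% and Lars2 took 32.0% of the Actb library, against 0.0889% and 17.0% of the Malat1 library and 0.0924% and 22.2% of the Tfrc library, which moves the share of other genes. All 10 ES cell markers examined, Pou5f1, Nanog and Sox2 among them, had at least 486 counts in each library. Of the erythroid, hepatocyte, macrophage and fibroblast lists, at most 4 markers a list reached 10 counts in a library, and the summed level of a list was 3.08 to 18.8 CPM in the Actb library, 7.54 to 22.7 in the Malat1 library and 5.50 to 23.4 in the Tfrc library. Hba-a1, Alb and Col3a1 had 3 or fewer counts in each, and Emr1 had 0, 0 and 5, whereas Thy1 had 177, 181 and 275, Cd68 86, 177 and 219, Csf1r 30, 42 and 46, and Trf 31, 75 and 73.

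Tfrc (ENSMUSG00000022797, NCBIM37 chromosome 16, 32609006 to 32632880, plus strand, 19 merged exons) had 43.5 CPM in the Actb library (95% Wilson interval 39.7 to 47.7), 101 in the Malat1 library (95.2 to 108) and 117 in the Tfrc library (112 to 123). The 3 intervals did not overlap, and the level was lowest in the control. The fold over the Actb library was 2.69 (2.42 to 2.98, chi-square p = 1.39e-84) in the Tfrc library and 2.32 (2.08 to 2.60, chi-square p = 1.96e-53) in the Malat1 library. The share of its own mRNA in the Tfrc library was thus 1.16 times (1.07 to 1.25, chi-square p = 0.000229) that in the library made with oligonucleotides against Malat1, but with Ensembl-ID counts alone it was 1.05 (0.969 to 1.15, chi-square p = 0.220). Among the genes that reached 10 counts in each library of a pair, the median fold was 1.56 over the Actb library in the Tfrc library (14691 genes) and 1.82 in the Malat1 library (14572 genes). Divided by these medians, the folds of Tfrc were 1.73 (1.56 to 1.91) and 1.28 (1.14 to 1.43). Tfrc lay above 88.2% of these genes in the Tfrc library and above 69.7% in the Malat1 library. No other gene shared 100 nt or more of its exons at 80% identity or more, and no annotated gene overlapped it.

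Slc11a2 (ENSMUSG00000023030, chromosome 15, 100218329 to 100255503, minus strand, 20 merged exons), the endosomal iron transporter, had 254 counts in the Actb library, 592 in the Malat1 library and 731 in the Tfrc library. Its CPM were 24.4 (21.6 to 27.6), 58.7 (54.2 to 63.7) and 50.2 (46.7 to 54.0). Both target libraries lay above the control, and the level in the Malat1 library was the highest. The fold was 2.41 (2.08 to 2.79, chi-square p = 1.25e-33) in the Malat1 library and 2.06 (1.78 to 2.37, chi-square p = 4.38e-24) in the Tfrc library. Against the median gene it was 1.32 in each, with intervals of 1.14 to 1.53 and 1.14 to 1.52. The fold was above that of 72.3% of genes in the Malat1 library and of 73.6% in the Tfrc library. Gm5475, on the other strand, overlaps Slc11a2 by 2926 nt and had 0, 6 and 2 counts in the 3 libraries. Stretches of 100 nt or longer in its exons recur at 80% identity or more in 22 genes, Gm5475 included.

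Relative to the library total, neither ferritin chain was higher in a target library than in the control, but over the Ensembl-ID total alone Fth1 was at 1.09 in the Tfrc library. Fth1 (ENSMUSG00000024661, chromosome 19, 10057193 to 10059582, plus strand, 4 merged exons) had 185 CPM in the Actb library (176 to 193), 124 in the Malat1 library (118 to 132) and 182 in the Tfrc library (175 to 189). The Malat1 library was low, and the intervals of the other libraries overlapped. The fold in the Malat1 library was 0.674 (0.628 to 0.724, chi-square p = 8.76e-28), and in the Tfrc library it was 0.987 (0.930 to 1.05, chi-square p = 0.657). Against the median gene these were 0.371 and 0.633, so that 2.96% of the genes in the Malat1 comparison and 12.0% of those in the Tfrc comparison had a lower fold.

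Ftl1 (ENSMUSG00000050708, chromosome 7, 52713314 to 52715254, minus strand, 4 merged exons) had 237 CPM in the Actb library (228 to 247), 158 in the Malat1 library (151 to 166) and 187 in the Tfrc library (180 to 194). It was highest in the control, and no 2 intervals overlapped. The fold was 0.667 (0.626 to 0.710, chi-square p = 5.47e-37) in the Malat1 library and 0.786 (0.744 to 0.830, chi-square p = 3.58e-18) in the Tfrc library, lower than for all but 2.81% and 4.04% of genes. The counts of Ftl1 are uncertain because it has near copies. Exons of 25 other genes share at least 100 nt with it, and 6 of them, Ftl2, Gm10116, Gm15590, Gm12164, Gm5278 and Gm7541, share 300 nt or more at 90% identity or more. Reads could be split among them, as the handling of reads with several matches is not given in the sources used here. The 6 copies together had 8850 counts in the Actb library, 4089 in the Malat1 library and 9968 in the Tfrc library, which is more than Ftl1 itself in each library. Ftl2, annotated as a pseudogene with 1 exon, had 2235, 852 and 2324 of them, none of which were Genome counts. Summed with its 6 copies, Ftl1 gave a fold of 0.518 (0.502 to 0.535) in the Malat1 library and 0.801 (0.781 to 0.822) in the Tfrc library. For Fth1, 1 gene, the pseudogene Gm6977, shared that much sequence, with 23, 24 and 23 counts.

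Slc40a1 (ENSMUSG00000025993, chromosome 1, 45964915 to 45982439, minus strand, 8 merged exons), the iron exporter, was near the limit of detection. It had 2 counts in the Actb library, 2 in the Malat1 library and 12 in the Tfrc library, where 3 counts correspond to 0.288, 0.298 and 0.206 CPM. The ratio of the Tfrc library to the Actb library was 4.29, with a counting interval of 0.960 to 19.2 that includes 1, while the chi-square test gave p = 0.0376. With 1 count added to each library the chi-square p was 0.0627, again from reads of 1 library a condition. These few counts do not settle whether the libraries differ, and Slc40a1 did not pass the minimum of 10 counts in each library that the counts of folds in the report use.

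By the fold of summed counts over the Actb library, the mRNAs of the iron regulatory proteins lay between those of uptake and storage. In the Tfrc library the interval of Aco1 contained that of Fth1. With Ensembl-ID counts over the whole library, Aco1 was below Fth1 there, at 0.870 against 0.981. Aco1 (ENSMUSG00000028405, chromosome 4, 40090114 to 40146042, plus strand, 23 merged exons) had 14.6 CPM in the Actb library (12.5 to 17.1), 18.7 in the Malat1 library (16.2 to 21.5) and 16.2 in the Tfrc library (14.3 to 18.4). All of these intervals overlapped. The fold was 1.28 (1.03 to 1.58, chi-square p = 0.0247) in the Malat1 library and 1.11 (0.905 to 1.36, chi-square p = 0.315) in the Tfrc library. Parts of its exons, at least 100 nt at 80% identity or more, were found in 1872 other genes, though none shared 300 nt at 90%.

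Ireb2 (ENSMUSG00000032293, chromosome 9, 54711562 to 54760341, plus strand, 22 merged exons) had 832, 925 and 1507 counts in the 3 libraries (Actb, Malat1, Tfrc). The intervals of its level were 74.7 to 85.6, 86.1 to 97.9 and 98.4 to 109 CPM. The level was lowest in the control and highest in the Tfrc library, without overlap. The fold was 1.15 (1.05 to 1.26, chi-square p = 0.00388) in the Malat1 library and 1.29 (1.19 to 1.41, chi-square p = 1.95e-09) in the Tfrc library. Both genes stayed under the median gene, at 0.702 and 0.712 for Aco1 and at 0.631 and 0.831 for Ireb2 in the Malat1 and the Tfrc library.

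**Figure D2:**
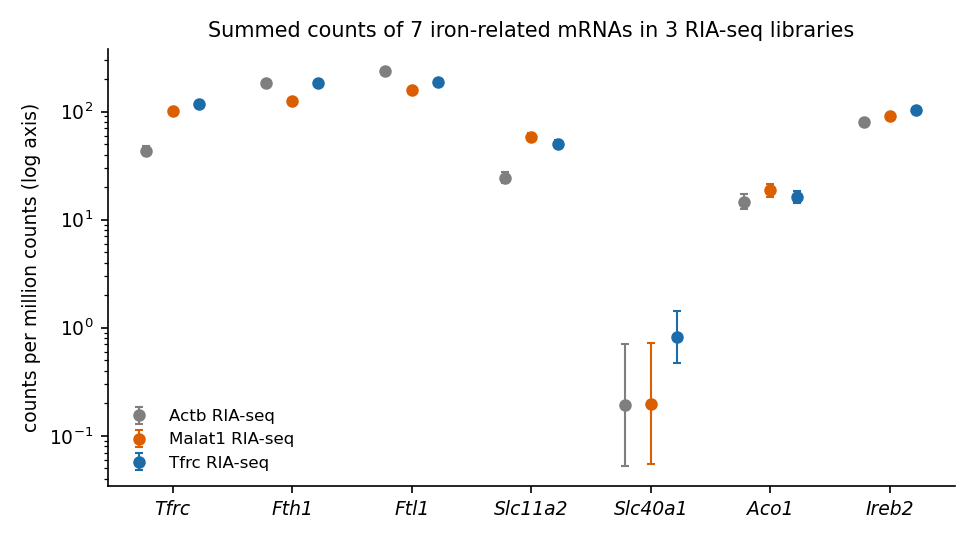
Summed CPM (log axis) of the 7 mRNAs in the 3 libraries, with 95% Wilson intervals that cover counting error only. Tfrc and Slc11a2 sit lowest in the Actb library, Fth1 and Ftl1 sit lowest in the Malat1 library, and Slc40a1 rests on 2, 2 and 12 counts.

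Of the 6 mRNAs that passed the minimum of 10 counts, 2 (Tfrc and Slc11a2) had a fold of 2 or more in the Tfrc library over the Actb library, where 28.6% of all genes did, and none had a fold of 0.5 or less, where 0.388% did. In the Malat1 library over the Actb library the same 2 mRNAs were at 2 or more, against 42.1% of all genes, and none was at 0.5 or less, against 0.954%. When folds were divided by that of the median gene, 0 of the 6 were at 2 or more in either comparison (6.90% and 7.38% of all genes). Without Actb, Malat1, Tfrc and Lars2 in the totals, 1 was in the Tfrc library (14.3% of all genes). In the Malat1 library 0 were (20.1% of all genes). The median fold of the 6 was 1.20 in the Tfrc library and 1.21 in the Malat1 library, below the medians of all genes. Relative to the median gene, the intervals of Tfrc and Slc11a2 lay above 1 and those of Fth1, Ftl1, Aco1 and Ireb2 below 1, in both comparisons. The 2 comparisons share the control library, so this likeness is not independent.

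**Figure D3:**
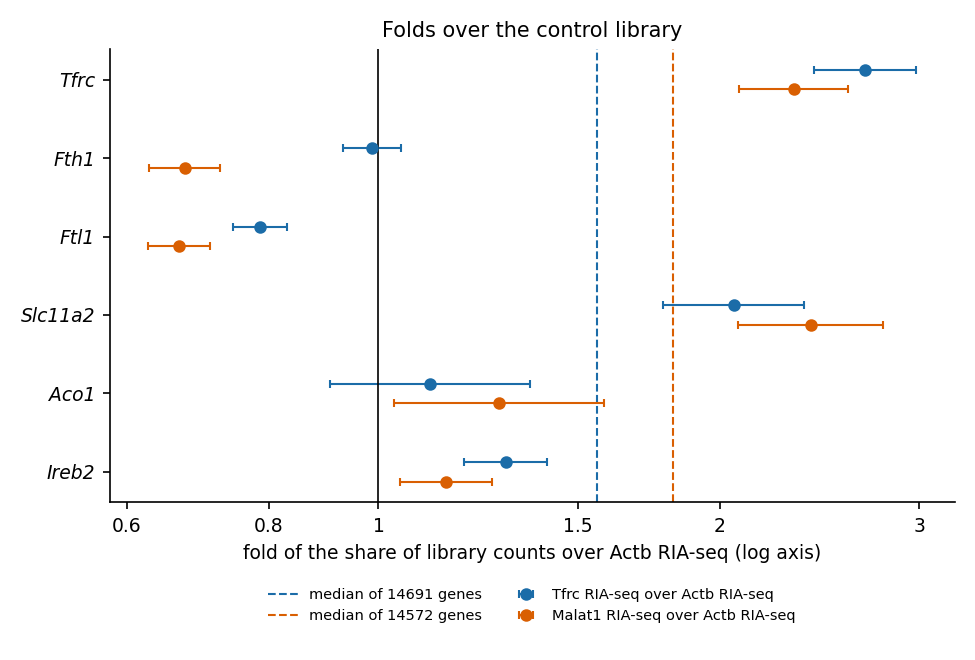
Fold of each mRNA over the Actb library (log axis) with 95% counting intervals, in blue for the Tfrc library and orange for the Malat1 library; dashed lines are the medians of all genes, 1.56 and 1.82. Tfrc and Slc11a2 lie to the right of both medians and the other 4 to the left of them.

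Both target libraries were also set directly against each other. Over the Malat1 library, the share in the Tfrc library was 1.46 times (1.37 to 1.57) for Fth1, 1.18 (1.11 to 1.25) for Ftl1, 1.13 (1.04 to 1.22) for Ireb2, 0.869 (0.718 to 1.05) for Aco1 and 0.855 (0.767 to 0.953) for Slc11a2. Fth1 had a larger ratio than Tfrc, the target, with intervals that did not overlap. None of the 6 was at 2 or more (1.92% of 16430 genes) or at 0.5 or less (4.35%). The median gene was at 0.867. Fth1 lay above 92.5% of the genes, Ftl1 above 82.3%, Tfrc above 81.0%, Ireb2 above 79.1%, Aco1 above 50.3% and Slc11a2 above 47.8%.

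Levels were compared between genes as Ensembl-ID CPM per kb of merged exon. In the Actb library this density was 211 for Fth1 and 175 for Ftl1, then 12.4 for Ireb2, 5.87 for Tfrc, 3.54 for Slc11a2, 2.39 for Aco1 and 0.0569 for Slc40a1. The storage mRNAs thus had the highest density and the exporter the lowest. In the Malat1 library the densities were 142, 109, 11.5, 14.1, 7.92, 2.14 and 0.0587 in the same order of genes, and in the Tfrc library they were 207, 134, 13.2, 15.6, 7.04, 2.08 and 0.163. The order changed at 1 place: Tfrc stood below Ireb2 in the control and above it in both target libraries. No neighbours in any of the 3 orders had overlapping counting intervals, but the spread between libraries of 1 condition is unknown and the length of Ftl1 takes no account of its copies.

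The kind of count separated the members further. Over the whole library, Genome counts made up 5.25% in the Actb library, 19.0% in the Malat1 library and 15.1% in the Tfrc library. For Tfrc this share was 16.6% (Wilson interval 13.4 to 20.3), 14.0% (12.0 to 16.3) and 17.8% (16.1 to 19.7) in the same order. The interval in the Actb library overlapped both others, and no rise of the Genome share was detectable for Tfrc. For Ireb2 it was 9.86% (8.01 to 12.1), 27.1% (24.4 to 30.1) and 25.8% (23.7 to 28.1), and for Aco1 15.1% (10.3 to 21.7), 40.4% (33.7 to 47.6) and 33.5% (27.8 to 39.7). Both genes rose in both target libraries without overlap with the control. Ftl1 rose from 1.17% (0.818 to 1.68) to 7.46% (6.27 to 8.85) and 3.53% (2.90 to 4.30). Slc11a2 had 7.87% (5.15 to 11.8), 14.4% (11.8 to 17.4) and 10.9% (8.88 to 13.4), where both later intervals overlapped the first. Fth1 had 0.781%, 1.36% and 1.36%, with overlapping intervals. The intron length was 50.7 kb in Aco1, 43.0 in Ireb2, 30.8 in Slc11a2, 17.7 in Tfrc, 1.52 in Fth1 and 0.601 in Ftl1.

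**Figure D4:**
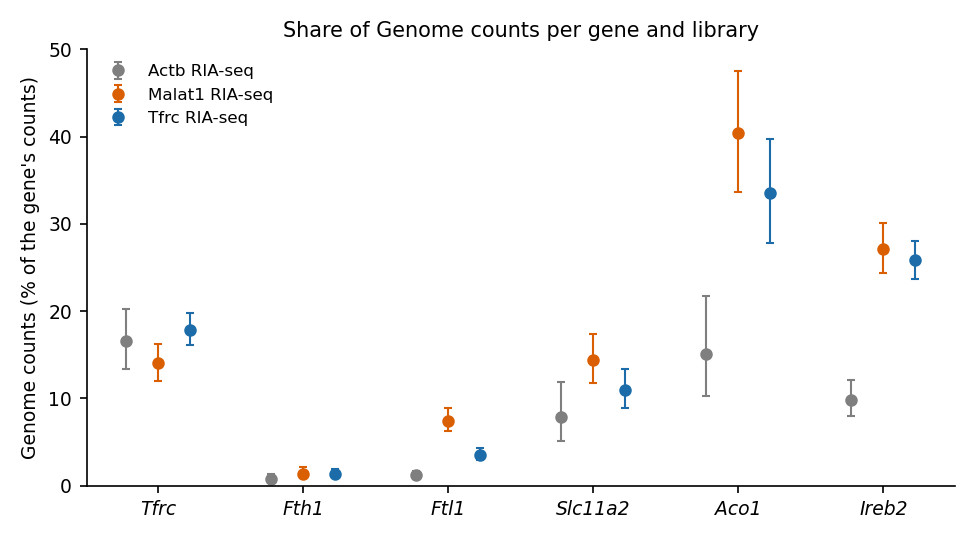
Genome counts as a percentage of each gene's counts in the 3 libraries, with 95% Wilson intervals; Slc40a1, with 12 counts or fewer, is left out. The share rises over the Actb library in Aco1 and Ireb2 in both target libraries, and for Tfrc the intervals of both target libraries overlap that of the control.

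The folds over the control were therefore given for each kind of count, both relative to the whole library. For Ireb2 the Ensembl-ID counts were 750, 674 and 1118 in the 3 libraries (Actb, Malat1, Tfrc), and the Genome counts were 82, 251 and 389. The Ensembl-ID fold was 0.928 (0.836 to 1.03) in the Malat1 library and 1.07 (0.972 to 1.17) in the Tfrc library, while the Genome fold was 3.16 (2.46 to 4.05) and 3.39 (2.67 to 4.30). Over the total of its own kind, the Ensembl-ID fold of Ireb2 was 1.09 (0.978 to 1.20) in the Malat1 library and 1.19 (1.08 to 1.30) in the Tfrc library. Its Genome fold was then 0.872 (chi-square p = 0.282) and 1.18 (chi-square p = 0.172), with intervals that include 1. For Aco1 the Ensembl-ID counts were 129, 112 and 157 and the Genome counts 23, 76 and 79. Its Ensembl-ID folds were 0.896 (0.696 to 1.15) and 0.870 (0.689 to 1.10), and its Genome folds 3.41 (2.14 to 5.44) and 2.46 (1.54 to 3.91), in the Malat1 and the Tfrc library.

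Tfrc and Slc11a2 were higher in both kinds. The Ensembl-ID fold of Tfrc was 2.40 (2.12 to 2.70) in the Malat1 library and 2.65 (2.36 to 2.97) in the Tfrc library, and its Genome fold was 1.97 (1.49 to 2.60) and 2.90 (2.25 to 3.73). Slc11a2 had Ensembl-ID folds of 2.24 (1.92 to 2.61) and 1.99 (1.71 to 2.31) and Genome folds of 4.39 (2.70 to 7.14) and 2.86 (1.75 to 4.67). Relative to the whole library, Ftl1 went in opposite directions. Its Ensembl-ID folds were 0.624 (0.585 to 0.666) and 0.767 (0.726 to 0.811). Its Genome folds were 4.24 (2.82 to 6.36) and 2.37 (1.56 to 3.59), from 29, 119 and 96 counts. Over the Genome total of each library, the Genome fold of Tfrc was 0.543 in the Malat1 library and 1.01 in the Tfrc library. Its Genome counts thus rose no more than Genome counts as a whole. On this scale, in the same order, Slc11a2 was at 1.21 and 0.995, Ftl1 at 1.17 and 0.824, and Aco1 at 0.942 and 0.855. The intervals of these 3 genes all included 1.

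The genes whose pair of folds over the Actb library was nearest to that of Tfrc, among 3623 other genes with at least 300 counts in every library, were Cnot4, AY036118 and Mdm4-ps. Their distances on the log2 scale were 0.06, 0.07 and 0.08. Cnot4, an E3 ubiquitin ligase of the CCR4-NOT complex, had 482, 1048 and 1768 counts in the 3 libraries (Actb, Malat1, Tfrc). AY036118 had 6952, 15079 and 25263 counts, and Mdm4-ps had 471, 1046 and 1676. The likeness rests on 2 folds from 3 libraries, with the control in common.

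Other genes of iron handling were taken from a list of 78 genes in 7 groups that includes the 7 above, of which 74 had counts. In the Tfrc library over the Actb library, 65 passed the minimum and 16 were at a fold of 2 or more (24.6%, against 28.6% of all genes). At 0.5 or less there were 0 (0.388% of all genes). In the Malat1 library, 24 of 65 were at 2 or more (36.9%, against 42.1%) and 1, Ftl2, was at 0.5 or less (0.954% of all genes). The median folds were 1.36 and 1.54, both below those of all genes. In the Tfrc library over the Malat1 library, 0 of 68 were at 2 or more (1.92% of all genes) and 2 were at 0.5 or less (4.35% of all genes). These were Hmox1, heme oxygenase 1, at 0.482 (0.438 to 0.530) and Narfl, a factor of cytosolic Fe-S cluster assembly, at 0.442 (0.336 to 0.582), named after their values were seen as well as by rule.

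Of the uptake genes, 4 of 9 were at 2 or more in the Tfrc library, its target Tfrc included, against 28.6% of all genes, and 6 of 9 in the Malat1 library, against 42.1%, with medians of 1.83 and 2.27. When folds were divided by that of the median gene, 1 and 4 of the 65 genes of the whole list were at 2 or more. The shares of all genes were then 6.90% and 7.38%. Next to Tfrc, the highest fold in the Tfrc library was 2.36 (1.16 to 4.79) for Hfe, a partner of the transferrin receptor, from 10 counts in the control and 33 in the Tfrc library. In the Malat1 library the highest were Slc39a14, a zinc and iron importer, at 3.92 (3.52 to 4.37) from 412 and 1564 counts, and Trf, transferrin, at 2.50 (1.64 to 3.80) from 31 and 75. The lowest in both were Snx3, a sorting nexin that returns the receptor from endosomes, at 0.974 (0.867 to 1.09) and 1.43 (1.27 to 1.60), and Steap3, an endosomal ferric reductase, with intervals of 1.21 to 1.85 and 0.996 to 1.59.

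In the group of storage, delivery and export, 0 of 6 genes were at 2 or more in either comparison, against 28.6% and 42.1% of all genes. The 6 were Fth1, Ftl1, Ftl2, Ncoa4, Pcbp1 and Pcbp2. Slc40a1, the exporter, did not pass the minimum, so these values do not cover export. The medians were 1.03 in the Tfrc library and 0.843 in the Malat1 library, the lowest of the 7 groups. Highest were the iron chaperones, Pcbp1 at 1.31 (1.21 to 1.41) and Pcbp2 at 1.23 (1.17 to 1.30) in the Tfrc library, and Pcbp2 at 1.23 (1.16 to 1.30) and Ncoa4, which delivers ferritin for degradation, at 1.03 (0.895 to 1.18) in the Malat1 library. Lowest were Ftl2 at 0.743 and 0.394 and Ftl1. Both share sequence, so they are not independent.

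Among the genes of iron-responsive control, 2 of 6 were at 2 or more in the Tfrc library (28.6% of all genes) and 1 of 6 in the Malat1 library (42.1%). Bmp6, the signal that induces hepcidin, had folds of 2.89 (1.79 to 4.67) and 3.88 (2.40 to 6.28), from 21 counts in the control. Of its 21, 79 and 85 counts, 19, 58 and 73 were Genome counts. Genome counts as a whole made up 5.25%, 19.0% and 15.1% of the 3 libraries (Actb, Malat1, Tfrc). Their part in the folds of Bmp6 was not tested. Fbxl5, the iron-sensing ligase that marks IRP2 for degradation, had 2.03 (1.71 to 2.41) and 1.67 (1.39 to 2.01). Its Ensembl-ID counts were 136, 169 and 289 and its Genome counts 44, 122 and 222 (Actb, Malat1, Tfrc). The part of the Genome counts in the folds of Fbxl5 was not tested either. Skp1a, a subunit of the same ligase, was the lowest with 0.969 (0.880 to 1.07) and 1.14 (1.03 to 1.26).

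Of 5 further mRNAs known for an iron-responsive element, 3 were at 2 or more in the Tfrc library (28.6% of all genes) and 4 in the Malat1 library (42.1%). Of all genes that held the element pattern and passed the minimum, 25.6% and 45.3% were. Alas2, the erythroid enzyme that starts heme synthesis, had 35 counts in the Actb library, 181 in the Malat1 library and 272 in the Tfrc library. Its folds, 5.56 (3.91 to 7.90) in the Tfrc library and 5.34 (3.72 to 7.67) in the Malat1 library, were the highest of the whole list among genes that passed the minimum. Nearly all of these were Genome counts, 33, 171 and 266, against Ensembl-ID counts of 2, 10 and 6. Over the whole library the share of Genome counts was 5.25%, 19.0% and 15.1%. How far this difference makes up the folds of Alas2 was not tested. The erythroid marker list, of which Alas2 is a member, summed to 5.57, 22.7 and 23.4 CPM in the 3 libraries, of which Alas2 itself made up 3.36, 18.0 and 18.7. Of its other members, Epor had 8, 18 and 28 counts, Klf1 5, 12 and 18, Gata1 9, 15 and 20, and Hba-a1 1, 0 and 0. The part of such transcripts in the fold was not tested. Cdc14a, a phosphatase, followed with 2.85 (2.17 to 3.75) and 3.15 (2.37 to 4.17). Among the low folds of the group were Epas1, the hypoxia factor HIF-2α, at 1.96 (1.75 to 2.19) in the Tfrc library and Cdc42bpa, a kinase, at 2.07 (1.83 to 2.35) in the Malat1 library. In the order Actb, Malat1 and Tfrc, Cdc14a had Ensembl-ID counts of 29, 69 and 85 and Genome counts of 35, 126 and 170. For Epas1 these were 296, 352 and 734, and 123, 497 and 415. Cdc42bpa had 222, 332 and 441, and 146, 407 and 624. The part of Genome counts in the number of the group at 2 or more was not tested. The element pattern was found in Alas2 and not in Epas1, Cdc14a or Cdc42bpa.

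**Figure D5:**
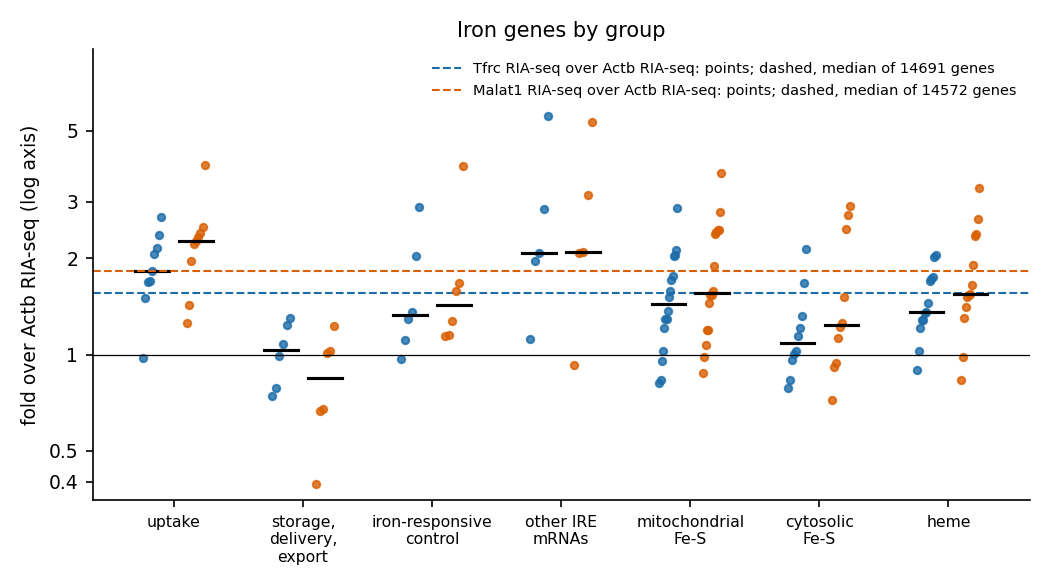
Folds over the Actb library (log axis) of the iron genes that passed the minimum of 10 counts, by group; each point is a gene, black bars are group medians and dashed lines are the medians of all genes. The storage group lies below both dashed lines, and Alas2, among the mRNAs with an iron-responsive element (IRE), is highest at 5.56 and 5.34.

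Mitochondrial iron and Fe-S cluster genes were at 2 or more for 4 of 16 in the Tfrc library (28.6% of all genes) and 6 of 16 in the Malat1 library (42.1%), with medians of 1.44 and 1.56, below those of all genes. Lyrm4, a partner of the cysteine desulfurase, had 2.87 (2.32 to 3.57) and 3.70 (2.97 to 4.60), mostly from Genome counts. Its Genome counts were 81, 339 and 365 against Ensembl-ID counts of 22, 30 and 49. Genome counts made up 5.25%, 19.0% and 15.1% of the whole libraries, and their part in these folds was not tested. Slc25a37, the mitochondrial iron importer mitoferrin 1, had 2.12 (1.81 to 2.49) in the Tfrc library, and Nfs1, the desulfurase, 2.79 (2.18 to 3.58) in the Malat1 library. Slc25a37 had Ensembl-ID counts of 146, 262 and 379 and Genome counts of 55, 203 and 218 (Actb, Malat1, Tfrc). For Nfs1 the Ensembl-ID counts were 52, 111 and 101 and the Genome counts 33, 119 and 143. The part of Genome counts in the folds of both genes was not tested. The chaperones Hspa9 and Hscb were lowest, at 0.813 (0.768 to 0.861) and 0.832 (0.635 to 1.09) in the Tfrc library and at 0.981 (0.925 to 1.04) and 0.874 (0.653 to 1.17) in the Malat1 library.

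In cytosolic Fe-S assembly, 1 of 10 and 3 of 10 genes were at 2 or more, against 28.6% and 42.1% of all genes. Mms19, which targets clusters to DNA-handling enzymes, was highest with 2.14 (1.91 to 2.40) in the Tfrc library and 2.91 (2.60 to 3.26) in the Malat1 library, followed by the reductase Ndor1 at 1.68 (1.41 to 2.00) in the first and Narfl at 2.74 (1.97 to 3.80) in the second. Lowest were Fam96b at 0.784 (0.631 to 0.975) and Nubp2 at 0.833 (0.649 to 1.07) in the Tfrc library, and Bola2 at 0.722 (0.614 to 0.847) and Nubp1 at 0.912 (0.769 to 1.08) in the Malat1 library. Of the genes of heme synthesis, breakdown and export, 2 of 13 and 4 of 13 were at 2 or more, against the same shares of all genes. Ppox, the oxidase before the last step of heme synthesis, at 2.04 (1.64 to 2.53), and Blvra, a biliverdin reductase, at 2.02 (1.31 to 3.10) were highest in the Tfrc library. In the Malat1 library these were Blvra at 3.32 (2.17 to 5.07) and Hmox1 at 2.65 (2.36 to 2.98). Blvra had Ensembl-ID counts of 21, 54 and 43 and Genome counts of 7, 36 and 36 (Actb, Malat1, Tfrc). The part of these Genome counts in its folds was not tested. Cpox, of heme synthesis, at 0.894 (0.766 to 1.04) and 0.834 (0.703 to 0.991), and Hmox2, the constitutive heme oxygenase, at 1.03 (0.827 to 1.28) and 0.980 (0.771 to 1.25), were lowest.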

How the data were processed

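The authors deposited, for each of 3 RIA-seq libraries, a table of raw read counts per gene, without normalization, and genes with no read are left out. The submitters' processing notes name Bowtie 0.12.7 and the builds mm9 and NCBIM37, with no role. The counting rule, the strand and the treatment of reads with several matches are not given in the sources used here. Samples were grouped by the labelled oligonucleotides, with 1 library per condition.

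Counts were summed per gene name and chromosome and divided by the library total. Folds are ratios of these shares with a pseudocount of 0 and a 95% interval on the log scale, and shares have Wilson intervals. Pairs of libraries were compared by chi-square tests (two-sided, uncorrected for continuity), replaced by Fisher's exact test for expected counts under 5. The background was every gene that reached 10 counts in each library of a pair, with a fold of 2 or 0.5 as the limit. The 7 genes and the wider list were chosen with earlier results of these data known. Named from the wider list were the 2 highest and the 2 lowest folds of each group over the Actb library, of which 1 gene is not reported here. Folds and tests were checked on data drawn with known answers. Gene bounds, exons and sequences came from GENCODE vM1 on NCBIM37, and shared exon sequence from BLAST 2.17.0. Figures were drawn with matplotlib 3.10.9, tests used scipy 1.17.1, and tables pandas 2.3.3 with numpy 2.4.6 under Python 3.11.15. Flvcr1, Hamp2, Iba57 and Lcn2 of the wider list were looked up and were listed under these names in no library, so they have no values here. Alternatives were another scaling, a pseudocount of 1, either kind of count alone and other minimum counts.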

Additional observations from a re-analysis of the deposited data

How the results depend on the processing

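No paired analysis was possible because each condition has 1 library, and for the same reason no library could be left out. Of 139 alternative values of the folds, 87 kept their direction and their side of the 0.05 threshold of the test, 23 lost and 4 gained significance between the libraries, and 25 reversed; the cause was not tested. With the median gene at 1, Aco1 and Ireb2 turned to 0.712 and 0.831 in the Tfrc library over the Actb library and to 0.702 and 0.631 in the Malat1 library over the Actb library, and Aco1 to 1.00 in the Tfrc library over the Malat1 library. With totals that leave out Actb, Malat1, Tfrc and Lars2, Aco1 turned to 0.872 and 0.943, and Ireb2 to 0.848 in the Malat1 library. With Ensembl-ID counts and their own totals, Fth1 turned to 1.09 and Aco1 to 0.971 in the Tfrc library over the Actb library, and Tfrc was at 1.05 over the Malat1 library (chi-square p = 0.220). With Genome counts and their own totals, Tfrc was at 1.01 (chi-square p = 0.948), Slc11a2 at 0.995 and Aco1 at 0.855 in the Tfrc library, Tfrc at 0.543, Ftl1 at 1.17, Aco1 at 0.942 and Ireb2 at 0.872 in the Malat1 library, all over the Actb library, and Ftl1 at 0.704 in the Tfrc library over the Malat1 library. Alternatives added after the data were seen set each kind over the total of both. Ensembl-ID counts then gave 0.870 and 0.896 for Aco1 and 0.928 for Ireb2 in the Malat1 library, and Genome counts gave 1.72 and 1.17 for Fth1, 2.37 and 4.24 for Ftl1, and 0.559 for Ftl1 over the Malat1 library.

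The number of members at a fold of 2 or more in the Tfrc library over the Actb library was 0 with the median gene at 1. It was 1 without the 4 large genes in the totals and 0 for Genome counts. The shares of all genes under these settings were 6.90%, 14.3% and 2.13%. In the Malat1 library the number was 0 in all of these, against 7.38%, 20.1% and 2.41% of all genes. At 0.5 or less in the Malat1 library there were 2, 2 and 1, against 8.21%, 3.01% and 8.65% of all genes. In the Tfrc library over the Malat1 library, a minimum above 0 gave 1 member at 2 or more, Slc40a1, against 8.25% of all genes. Of the wider list 65 genes passed the minimum over the Actb library, 46 for Genome counts and 63 for Ensembl-ID counts. The number at 2 or more in the Tfrc library was 1, 5 and 1 under those settings and 9 for Ensembl-ID counts. The shares of all genes were 6.90%, 14.3%, 2.13% and 19.7%. At 0.5 or less there were 1 with the median gene at 1 (3.85% of all genes) and 5 for Genome counts (8.74%). In the Malat1 library the number at 2 or more was 4, 9 and 0 under those settings, against 7.38%, 20.1% and 2.41% of all genes. At 0.5 or less it was 6, 3 and 6, against 8.21%, 3.01% and 8.65%. In the Tfrc library over the Malat1 library, 1 gene was at 2 or more under each of those settings. The shares of all genes were 3.64%, 2.58% and 4.07%. A minimum above 0 also gave 1 gene (8.25% of all genes). At 0.5 or less there were 0, 1 and 4 (2.17%, 3.23% and 3.69% of all genes), and 4 for Ensembl-ID counts (5.62%). Here 68 genes of the list passed the minimum, 58 for Genome counts and 65 for Ensembl-ID counts. The median Genome share of 6 members, taken as densities per kb of intron and exon, was 1.76% in Actb, 5.09% in Malat1 and 4.70% in the Tfrc library. Depth limits Slc40a1, and no interval covers the spread between library preparations.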
